A study of Mus musculus with 8 samples.

Results

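The canonical Wnt target and feedback genes are genes that beta-catenin switches on in many tissues and whose products mostly act back on the pathway. The 10 genes Axin2, Lef1, Tcf7, Nkd1, Nkd2, Notum, Sp5, Rnf43, Znrf3 and Apcdd1 were taken by symbol from the 50578 genes of the count table. All 10 were followed through all 8 libraries, but the list was chosen with earlier results of these data known. RNA-seq had been performed on wild-type mouse embryonic fibroblasts (MEFs), primary cells grown from C57BL/6J embryos freed of head, tail, limbs and internal organs, and on such MEFs cultured with Carbidopa, CHIR-99021 or LY-364747 at 10 µM. Each of the 4 groups held 2 libraries. Carbidopa inhibits aromatic-L-amino-acid decarboxylase, CHIR-99021 inhibits the kinase GSK3, and LY-364747, which the study's methods spell LY-364947, inhibits the TGF-beta receptor. The treated samples were labelled as hepatic-like cells, and for the RNA-seq neither the time of treatment, which the methods state for PCR samples, nor a vehicle for the untreated MEFs is given in the sources used here. Nothing in the labels ties the replicates to separate cultures, so p-values measure the spread between these libraries, which may be technical.

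In canonical Wnt signaling, a cytoplasmic destruction complex of Axin, Apc, casein kinase 1 and GSK3 marks beta-catenin for degradation. A Wnt ligand bound to a Frizzled receptor, or an inhibitor of GSK3, halts this, and beta-catenin enters the nucleus and joins transcription factors of the TCF/LEF family at their target genes. Many of these targets are brakes on the same pathway: Axin2 rebuilds the destruction complex, Rnf43 and Znrf3 remove Frizzled from the membrane, Nkd1 and Nkd2 bind Dishevelled, Notum inactivates the ligand and Apcdd1 binds ligand and receptor at the surface. Lef1 and Tcf7 are themselves TCF/LEF factors, and Sp5 is a zinc finger factor of the Sp family.

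The promoter windows of 4 of the genes are shown because they span the range of responses described below: Sp5 stayed near 0 reads, Lef1 was higher with CHIR-99021 than in every other group, Tcf7 rose with each compound, and no difference was called for Axin2. The sequences are those of RefSeq on GRCm38 (mm10) and run 5′ to 3′ from 250 bases before to 50 bases after an annotated transcript start. Capitals mark the 7-base TCF/LEF words CTTTGAA or CTTTGAT or CTTTGTA or CTTTGTT, searched on both strands, so that a word on the opposite strand is printed as its reverse complement. The Sp5 window (chr2:70474673-70474972, plus strand) holds CTTTGTT on the opposite strand from base -222 and CTTTGAT on the same strand from base -104, counted from the start. The Lef1 window (chr3:131156044-131156343, plus strand) belongs to an internal transcript start and holds CTTTGTA on the opposite strand from base -147, whereas the other 3 windows of Lef1, 2 of them overlapping, hold none of the words. The windows of Tcf7 (chr11:52282965-52283264, minus strand) and Axin2 (chr11:108920099-108920398, plus strand) hold none of the 4 words. From an atg inside the Tcf7 window, the letters run to its end as codons without a stop. That window may thus be largely coding sequence, and it says nothing of a promoter further upstream.
Sp5: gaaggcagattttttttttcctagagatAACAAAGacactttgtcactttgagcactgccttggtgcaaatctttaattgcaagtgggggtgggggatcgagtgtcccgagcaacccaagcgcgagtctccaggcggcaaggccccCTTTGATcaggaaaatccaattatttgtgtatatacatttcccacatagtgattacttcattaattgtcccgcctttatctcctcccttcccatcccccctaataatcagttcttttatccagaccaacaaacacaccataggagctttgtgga
Lef1: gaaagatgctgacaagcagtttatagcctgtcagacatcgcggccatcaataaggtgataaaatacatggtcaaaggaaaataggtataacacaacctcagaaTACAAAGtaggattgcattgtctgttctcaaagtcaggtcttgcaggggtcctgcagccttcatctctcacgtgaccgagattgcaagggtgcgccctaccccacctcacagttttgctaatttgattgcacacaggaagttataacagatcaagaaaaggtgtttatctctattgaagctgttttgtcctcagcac
Tcf7: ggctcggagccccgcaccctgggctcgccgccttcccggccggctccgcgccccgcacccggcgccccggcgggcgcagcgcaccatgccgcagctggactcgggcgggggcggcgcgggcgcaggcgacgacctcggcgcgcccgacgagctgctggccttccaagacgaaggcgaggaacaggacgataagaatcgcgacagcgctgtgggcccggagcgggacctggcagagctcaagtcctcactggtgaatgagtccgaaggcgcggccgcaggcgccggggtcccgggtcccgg
Axin2: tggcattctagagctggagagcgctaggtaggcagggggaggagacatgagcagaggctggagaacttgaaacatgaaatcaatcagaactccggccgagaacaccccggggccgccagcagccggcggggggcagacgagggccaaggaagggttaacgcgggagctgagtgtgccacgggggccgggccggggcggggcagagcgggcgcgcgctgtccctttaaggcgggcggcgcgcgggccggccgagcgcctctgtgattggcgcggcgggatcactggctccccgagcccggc

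RefSeq windows were used for 7 of the 10 genes, 12 windows in all, which leaves out Notum, Znrf3 and Apcdd1. For these 10 genes, windows on chromosome 18, where Apcdd1 lies, were not searched. A TCF/LEF word was found in 2 of the 12 windows, and in 5544 of 32851 windows of all genes (16.9%). A match describes letters and is not evidence of binding, and a window without a match says only that these letters are not within it.

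The libraries held 15039566 to 20504338 counts. Levels are given in CPM, read counts scaled to a common library total with TMM factors. On this scale 3 reads, the most that a count of 0 allows, corresponded to 0.140 to 0.223 CPM. Such limits cover counting error only. The Carbidopa libraries differed more from each other, with a chi-square of 34.6 per degree of freedom, than the other pairs (4.31 to 9.21). The 12 fibroblast markers summed to between 34259 and 34697 CPM in MEFs and to between 8048 and 11545 CPM in the treated libraries, and 10 of the 12 were lower in each treatment. Fn1 alone gave 19249 and 18667 CPM of the MEF sums. Pdgfra was called higher with CHIR-99021 (log2 fold change 0.64), Carbidopa (0.49) and LY-364747 (0.36). Pdgfrb was not called with CHIR-99021, nor was Dcn with Carbidopa or LY-364747. The macrophage markers summed to 1141 to 1183 CPM in MEFs, 351 to 375 with Carbidopa, 262 to 267 with LY-364747 and 85.4 to 93.5 with CHIR-99021, with 12, 12 and 13 of the 13 tested genes lower. The 10 epithelial markers summed to 3.22 to 4.24 CPM in MEFs and to 9.81 to 23.0 CPM in treated libraries. Most of these reads were of Krt19 (36 to 43 in MEFs, 105 to 408 in treated libraries), while Epcam, Cdh1, Cldn3 and Grhl2 had 0 to 6 reads in each library. Of the 5 tested genes, 3 were higher with CHIR-99021 (Krt18, Krt19, Cldn4), 3 with Carbidopa (Krt5, Krt14, Krt19) and 1 with LY-364747 (Krt19). Of all tested genes, 18.7% were higher and 20.1% lower with CHIR-99021, 18.0% and 19.7% with Carbidopa, and 13.7% and 17.2% with LY-364747. These shares stand beside all marker counts given here. Krt5 and Krt14 had 16 to 78 reads in the Carbidopa libraries and 0 to 2 in the others. Endothelial markers (Cldn5 and Sox17 at 0) summed to 23.7 to 25.5 CPM in MEFs and 11.7 to 16.3 in treated libraries. Of their 4 tested genes, 3 were lower with CHIR-99021, 2 with Carbidopa and 2 with LY-364747. Neural crest and melanocyte markers (Tyr at 0) summed to 26.6 to 29.0 CPM in MEFs and 11.6 to 21.9 in treated libraries. Of their 6 tested genes, 0 were higher and 4 lower with CHIR-99021, 1 and 2 with Carbidopa, and 1 and 1 with LY-364747. The gene higher with Carbidopa and LY-364747 was Pmel. In bulk RNA, fewer cells of a type and less RNA per cell cannot be told apart, and the part of these shifts in the results on Wnt targets was not tested.

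Of the 10 genes, 8 passed the filter on low counts and were tested among 15154 genes. Notum and Sp5 did not pass. Tcf7 and Rnf43 passed through the treated libraries alone, since no MEF library reached the 0.572 CPM (before TMM scaling) that the filter required. Per kilobase of exon, the scale on which genes can be compared, Nkd2 had the highest level in MEFs with 5.37 ± 0.31 CPM per kb (SD, n = 2). Apcdd1 followed with 2.00 ± 0.20, Znrf3 with 1.76 ± 0.05 and Nkd1 with 1.46 ± 0.03 CPM per kb. The remaining genes were low in MEFs, from 0.394 CPM per kb for Axin2 and 0.197 for Tcf7 down to 0.149 for Lef1 and 0.030 for Rnf43. With CHIR-99021 the level of Tcf7, 1.68 ± 0.27 CPM per kb, came close to that of Nkd2, 1.83 ± 0.37, and their means lay within these errors.

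**Figure D1:**
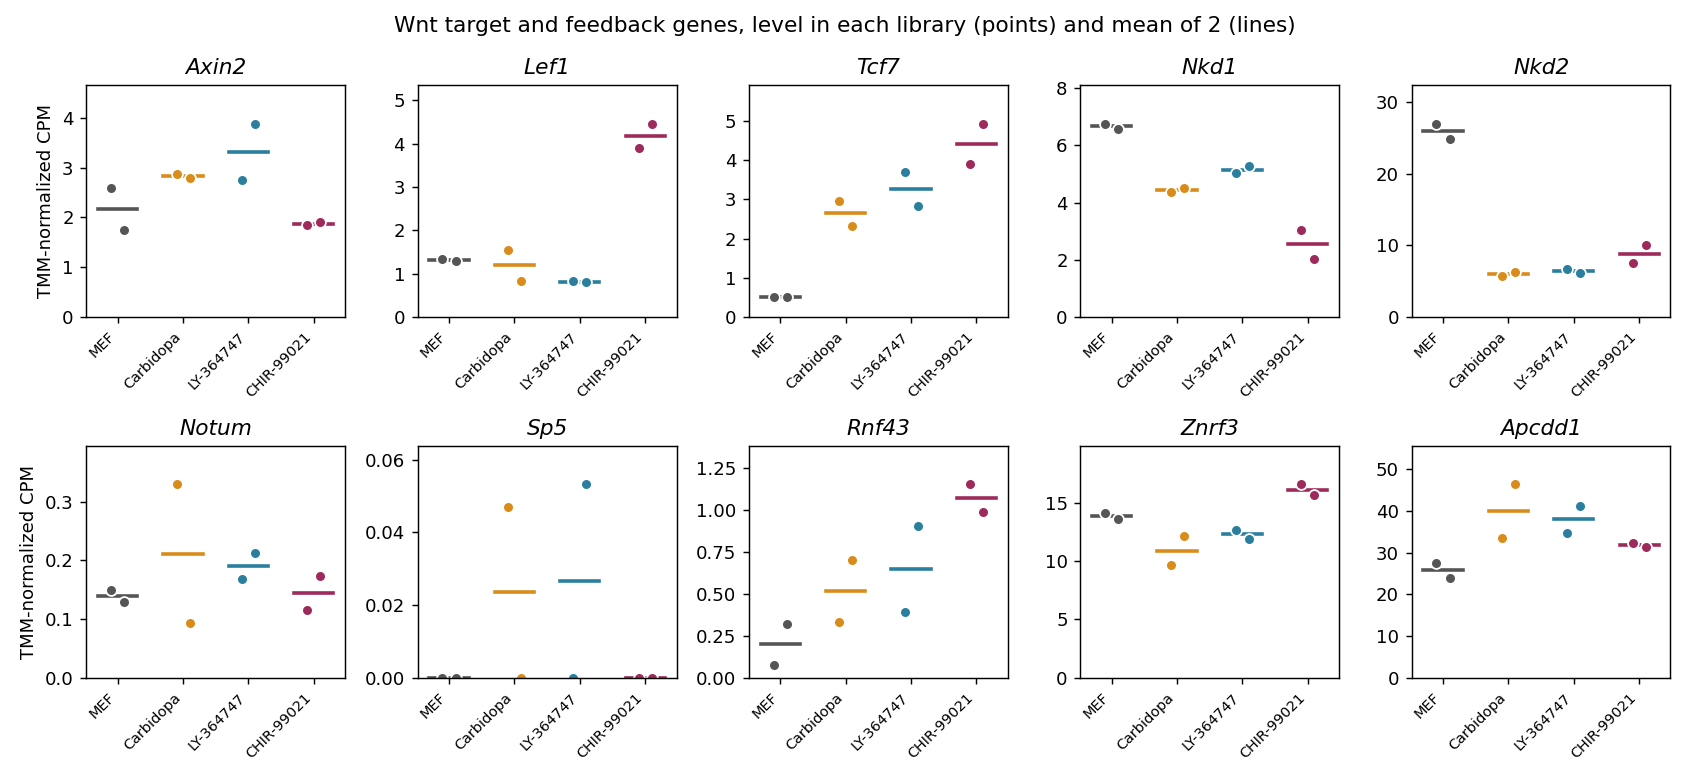
Level of the 10 Wnt target and feedback genes in each of the 8 libraries, in CPM with TMM scaling, each point 1 library. Tcf7 lies at 0.520 CPM or below in MEFs and at 2.33 CPM or above in each treated library, Nkd2 lies highest in MEFs, and Lef1 stands out with CHIR-99021.

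Among the transcription factors, Tcf7 (ENSMUSG00000000782, chr11:52252371-52283014, minus strand) was higher with every compound. TCF1, its product, carries the HMG box that reads the TCF/LEF site, and is best known from T cells. Its MEF libraries held 0.520 and 0.516 CPM (7 and 8 reads), its Carbidopa libraries 2.96 and 2.33, its LY-364747 libraries 3.70 and 2.82, and its CHIR-99021 libraries 3.91 and 4.93 CPM. Each of the 6 treated libraries lay above both MEF libraries. Against MEFs, Tcf7 was 8.43-fold higher with CHIR-99021 (log2 fold change 3.08, standard error (SE) 0.34, adjusted p = 5.86e-05, edgeR's quasi-likelihood test over all tested genes, as for every adjusted p here). It was 5.06-fold higher with Carbidopa (log2 fold change 2.34, SE 0.35, adjusted p = 5.41e-04) and 6.22-fold higher with LY-364747 (2.64, SE 0.35, adjusted p = 2.27e-04). Because Tcf7 passed the filter through treated libraries alone, it was also fitted with no filter, which gave 3.10 with CHIR-99021, 2.36 with Carbidopa and 2.64 with LY-364747, each called. The 10 T cell markers summed to 6.39 to 7.67 CPM in MEFs and to 1.32 to 6.16 CPM in treated libraries, and Cd3d and Cd2 were at 0 in all 8. In MEFs nearly all of these reads were of Cd28 (84 of 86 and 114 of 119). With CHIR-99021, Cd28 gave 12 of 23 and 22 of 37 reads. Lck had 1 and 3 reads in MEFs and 9 and 11 with CHIR-99021, and the part of these shifts in the Tcf7 result was not tested.

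Lef1 (ENSMUSG00000027985, chr3:131110471-131224356, plus strand), which like Tcf7 brings beta-catenin to DNA, was higher with CHIR-99021. The MEF libraries were at 1.34 and 1.29 CPM, those of Carbidopa at 1.55 and 0.839, those of LY-364747 at 0.841 and 0.798, and those of CHIR-99021 at 3.91 and 4.46. The CHIR-99021 libraries lay above all 6 others, and the Carbidopa libraries lay on either side of the MEFs. The difference from MEFs was 3.18-fold with CHIR-99021 (log2 fold change 1.67, SE 0.33, adjusted p = 0.00269). It was not called with Carbidopa (-0.13, 95% interval -0.94 to 0.67, adjusted p = 0.795) or LY-364747 (-0.68, -1.54 to 0.19, adjusted p = 0.225). The antisense gene Gm43352, which overlaps Lef1 and could exchange reads with it if counting ignored strand, had 0 to 3 reads in each library. Sp5 (ENSMUSG00000075304, chr2:70474923-70477729, plus strand), the gene with the 2 TCF/LEF words in the window shown, had no read in 6 libraries and 1 read in each of Carbidopa replicate 1 and LY-364747 replicate 2. It had 0 reads in both CHIR-99021 libraries, and no difference was detectable at this depth.

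Axin2 (ENSMUSG00000000142, chr11:108920349-108950783, plus strand), the scaffold protein often used as a readout of Wnt activity, was not called in any comparison. The MEFs held 2.60 and 1.74 CPM of it, the Carbidopa libraries 2.87 and 2.80, those of LY-364747 2.75 and 3.88, and those of CHIR-99021 1.84 and 1.91. The CHIR-99021 libraries fell between the MEF libraries, and those of Carbidopa and LY-364747 lay above them. With CHIR-99021 the log2 fold change against MEFs was -0.20 (95% interval -0.89 to 0.49, adjusted p = 0.648), and without MEF replicate 1 it was 0.11. Carbidopa gave 0.39 (-0.25 to 1.04, adjusted p = 0.309) and LY-364747 gave 0.62 (-0.02 to 1.27, adjusted p = 0.134). With 27 to 73 reads in a library, these intervals reach past a doubling for Carbidopa and LY-364747.

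The Dishevelled-binding inhibitors were lower, Nkd2 with every compound and Nkd1 with CHIR-99021. Nkd2 (ENSMUSG00000021567, chr13:73818534-73847631, minus strand) stood at 27.0 and 24.9 CPM in the MEF libraries, at 5.69 and 6.29 in those of Carbidopa, at 6.67 and 6.17 in those of LY-364747, and at 7.54 and 10.1 in those of CHIR-99021. No treated library came near the MEFs. It was 4.32-fold lower with Carbidopa (log2 fold change -2.11, SE 0.17, adjusted p = 6.13e-06), 4.03-fold lower with LY-364747 (-2.01, SE 0.17, adjusted p = 9.26e-06) and 2.94-fold lower with CHIR-99021 (-1.56, SE 0.17, adjusted p = 4.65e-05). Nkd1 (ENSMUSG00000031661, chr8:88521354-88594884, plus strand) stood at 6.76 and 6.58 CPM in the MEF libraries, at 4.37 and 4.52 in those of Carbidopa, at 5.05 and 5.27 in those of LY-364747, and at 3.05 and 2.03 in those of CHIR-99021. The groups of Nkd1 did not overlap, with CHIR-99021 lowest and MEFs highest. It was 2.62-fold lower with CHIR-99021 than in MEFs (log2 fold change -1.39, SE 0.23, adjusted p = 8.65e-04). Carbidopa gave -0.58 (SE 0.21, adjusted p = 0.0511), which passed with RLE scaling (-0.61, adjusted p = 0.0415), with the stricter filter (adjusted p = 0.0467) and without either CHIR-99021 library (adjusted p = 0.0400 and 0.0391). LY-364747 gave -0.37 (adjusted p = 0.217).

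Of the Frizzled ubiquitin ligases, Rnf43 was higher with CHIR-99021 on few reads, and no difference of Znrf3 from MEFs was called. Rnf43 (ENSMUSG00000034177, chr11:87662722-87735539, plus strand) gave 1 and 5 reads in the MEF libraries, 7 and 15 in those of Carbidopa, 7 and 17 in those of LY-364747, and 20 and 17 in those of CHIR-99021. All treated libraries held more reads than the MEFs, and those of CHIR-99021 were at 1.15 and 0.986 CPM. Summed over each group, 37 reads with CHIR-99021 against 6 in MEFs gave a ratio of 5.16 per scaled library, with an exact counting interval of 2.16 to 14.9. Because Rnf43 passed the filter through treated libraries alone, it was also fitted with no filter, which gave a log2 fold change of 2.36, also called. With the filter the log2 fold change was 2.34 (SE 0.71, adjusted p = 0.0254). This call was lost without MEF replicate 1 (1.71, adjusted p = 0.167), CHIR-99021 replicate 1 (2.23, adjusted p = 0.119) or CHIR-99021 replicate 2 (2.45, adjusted p = 0.0678), and without MEF replicate 2 the value was 3.72 (adjusted p = 0.0475). Carbidopa gave 1.29 (adjusted p = 0.212) and LY-364747 1.63 (adjusted p = 0.134).

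Znrf3 (ENSMUSG00000041961, chr11:5276324-5444847, minus strand), the more abundant of the pair, stood at 14.1 and 13.6 CPM in the MEF libraries, at 9.64 and 12.1 in those of Carbidopa, at 12.7 and 11.9 in those of LY-364747, and at 16.6 and 15.7 in those of CHIR-99021. The CHIR-99021 libraries were the highest and the MEF libraries came next. None of the 3 differences from MEFs was called: 0.22 with CHIR-99021 (95% interval -0.12 to 0.55, adjusted p = 0.277), -0.35 with Carbidopa (-0.68 to -0.01, adjusted p = 0.0942) and -0.17 with LY-364747 (-0.51 to 0.16, adjusted p = 0.430). Without Carbidopa replicate 2 the Carbidopa value was -0.52 and passed (adjusted p = 0.0114).

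Of the inhibitors that act outside the cell, Apcdd1, a membrane glycoprotein, was higher with Carbidopa and LY-364747, and Notum, a secreted enzyme that strips the lipid from Wnt, was barely detected. Apcdd1 (ENSMUSG00000071847, chromosome 18) stood at 27.6 and 24.0 CPM in the MEF libraries, at 33.5 and 46.4 in those of Carbidopa, at 34.8 and 41.2 in those of LY-364747, and at 32.3 and 31.3 in those of CHIR-99021. Every treated library exceeded both MEF libraries, and the Carbidopa pair was wide. Carbidopa gave a 1.55-fold increase (log2 fold change 0.63, SE 0.16, adjusted p = 0.0127) and LY-364747 a 1.47-fold increase (0.56, SE 0.16, adjusted p = 0.0258). The Carbidopa call was lost without MEF replicate 2 (0.53, adjusted p = 0.126), and its value was 0.38 without Carbidopa replicate 2 (adjusted p = 0.0313). The LY-364747 call was lost without MEF replicate 1 (0.66, adjusted p = 0.0663), MEF replicate 2 (0.46, adjusted p = 0.202) or LY-364747 replicate 2 (0.43, adjusted p = 0.189). CHIR-99021 gave 0.30 (adjusted p = 0.173), which passed in a fit of CHIR-99021 and MEF libraries alone (0.29, adjusted p = 0.0358) and without either Carbidopa library (adjusted p = 0.0368 and 0.0378). Notum (ENSMUSG00000042988, chr11:120653788-120661175, minus strand) had 2 to 7 reads in each library, with 4 reads over the MEF pair and 5 over the CHIR-99021 pair (ratio 1.05, exact counting interval 0.225 to 5.27). The antisense genes Notumos and Myadml2os overlap Notum, and 26.2% of its 75-base words are shared with them. If counting ignored strand, they could exchange reads with Notum or cost it reads. Notumos had 0 to 2 reads in each library and Myadml2os 0.

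Counted over the 10 genes, CHIR-99021 against MEFs gave 3 higher (Lef1, Tcf7, Rnf43), 2 lower (Nkd1, Nkd2), 3 not called and 2 not tested. Since Tcf7 and Rnf43 passed the filter only through libraries in which they were high, this count is a description, and with at least 10 counts in every library 1 gene was higher. In that comparison 38.8% of all tested genes were called, 18.7% higher and 20.1% lower. Carbidopa and LY-364747 each gave 2 higher (Tcf7, Apcdd1) and 1 lower (Nkd2), or 1 higher and, for Carbidopa, 2 lower with at least 10 counts in every library. In these comparisons 37.7% (18.0% higher, 19.7% lower) and 31.0% (13.7% higher, 17.2% lower) of all tested genes were called. These shares lie near the 37.5% that 3 calls among 8 tested genes make. The libraries of the 2 groups did not overlap for 7 of the 8 genes with CHIR-99021, 7 with Carbidopa and 8 with LY-364747, against 76.2%, 68.9% and 72.7% of all tested genes. The 3 comparisons share the MEF libraries. The median log2 fold change of the 8 tested genes was 0.26 with CHIR-99021, 0.13 with Carbidopa and 0.19 with LY-364747, against 0.04, 0.04 and 0.03 over all tested genes.

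**Figure D2:**
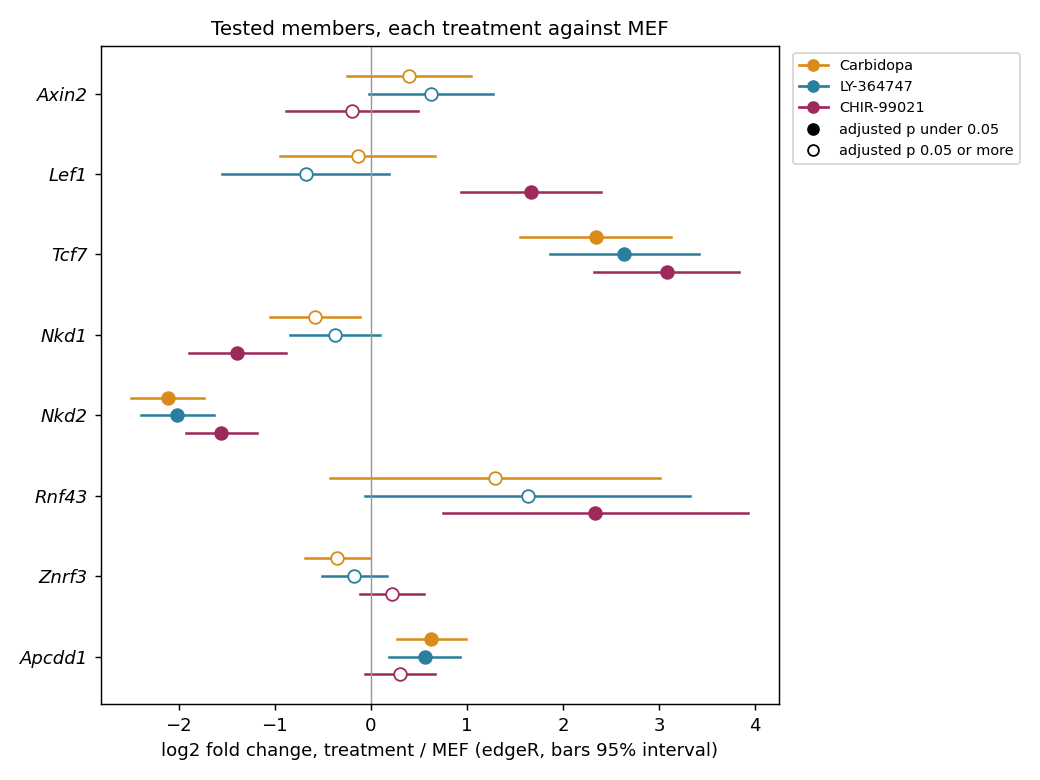
Log2 fold change against MEFs (x axis, edgeR, bars the 95% interval) of the 8 tested Wnt target and feedback genes for each compound, filled where the adjusted p was under 0.05. Tcf7 lies to the right and Nkd2 to the left of 0 for all 3 compounds, Lef1 is called for CHIR-99021 at 1.67, and the interval of Axin2 crosses 0 for each compound.

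Comparing the compounds with each other asks where the GSK3 inhibitor differs from the other compounds, and here Lef1 differed most. It was 3.49-fold higher with CHIR-99021 than with Carbidopa (log2 fold change 1.80, SE 0.32, adjusted p = 0.00428) and 5.08-fold higher than with LY-364747 (2.34, SE 0.34, adjusted p = 0.00151). Both calls of Lef1 held whichever 1 of the 8 libraries was left out. Against Carbidopa, CHIR-99021 gave 2 of the 8 tested genes higher (Lef1, Znrf3) and 1 lower (Nkd1), where 14.7% of all tested genes were called, 6.62% higher and 8.08% lower. Against LY-364747 it gave 1 higher (Lef1) and 1 lower (Nkd1), where 14.1% were called, 6.45% higher and 7.69% lower. The libraries did not overlap for any of the 8 genes in either comparison, against 52.2% and 64.5% of all tested genes.

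Nkd1 had less RNA with CHIR-99021 than under Carbidopa (-0.81, SE 0.23, adjusted p = 0.0404) and under LY-364747 (-1.02, SE 0.23, adjusted p = 0.0150). The first call was lost with DESeq2 (adjusted p = 0.0765), with the replicate block (-0.81, adjusted p = 0.0524), in the fit of the 2 groups alone (adjusted p = 0.134) and without MEF replicate 1, MEF replicate 2, CHIR-99021 replicate 2, LY-364747 replicate 1 or LY-364747 replicate 2 (adjusted p = 0.0759, 0.0726, 0.231, 0.0677 and 0.0716), the value without CHIR-99021 replicate 2 being -0.54. The second was lost without CHIR-99021 replicate 2, LY-364747 replicate 1 or LY-364747 replicate 2 (adjusted p = 0.0999, 0.0811 and 0.0818). For Znrf3, CHIR-99021 exceeded Carbidopa by 0.57 (SE 0.15, adjusted p = 0.0295), a call that was lost with DESeq2 (adjusted p = 0.0502) and in the fit of the 2 groups alone (adjusted p = 0.115). With 1 library left out it held only without Carbidopa replicate 2 (0.74, adjusted p = 0.00261), and its adjusted p was 0.0553 to 0.183 without any other. Against LY-364747 its difference of 0.39 (adjusted p = 0.112) passed in the fit of the 2 groups alone (adjusted p = 0.0454) and without Carbidopa replicate 1 or 2 (adjusted p = 0.0244 and 0.0252).

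The rise of Tcf7 was not shown to differ between compounds, with 0.74 for CHIR-99021 against Carbidopa (95% interval 0.18 to 1.30, adjusted p = 0.0793) and 0.44 against LY-364747 (-0.12 to 1.00, adjusted p = 0.279). The values of Nkd2 were 0.56 (0.16 to 0.95, adjusted p = 0.0621) and 0.46 (0.06 to 0.85, adjusted p = 0.120), the first of which passed with no filter on low counts (adjusted p = 0.0447) and without Carbidopa replicate 2 (adjusted p = 0.0353). Those of Axin2 were -0.59 (-1.23 to 0.05, adjusted p = 0.201) and -0.82 (-1.46 to -0.18, adjusted p = 0.0876). Apcdd1 gave -0.33 (adjusted p = 0.203) and -0.26 (adjusted p = 0.328), and the first was -0.54 and passed without Carbidopa replicate 1 (adjusted p = 0.0115). Between LY-364747 and Carbidopa edgeR called 0 of the 8 tested genes, 0 had an unadjusted p under 0.05, and DESeq2 called 0. In all, 2 of 15154 genes (0.0132%) were called there, and the libraries did not overlap for 1 of the 8 genes against 37.7% of all tested genes. The intervals there ran from -1.38 to 0.30 for Lef1 and from -0.30 to 0.50 for Nkd2, so that differences of such sizes remain possible.

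**Figure D3:**
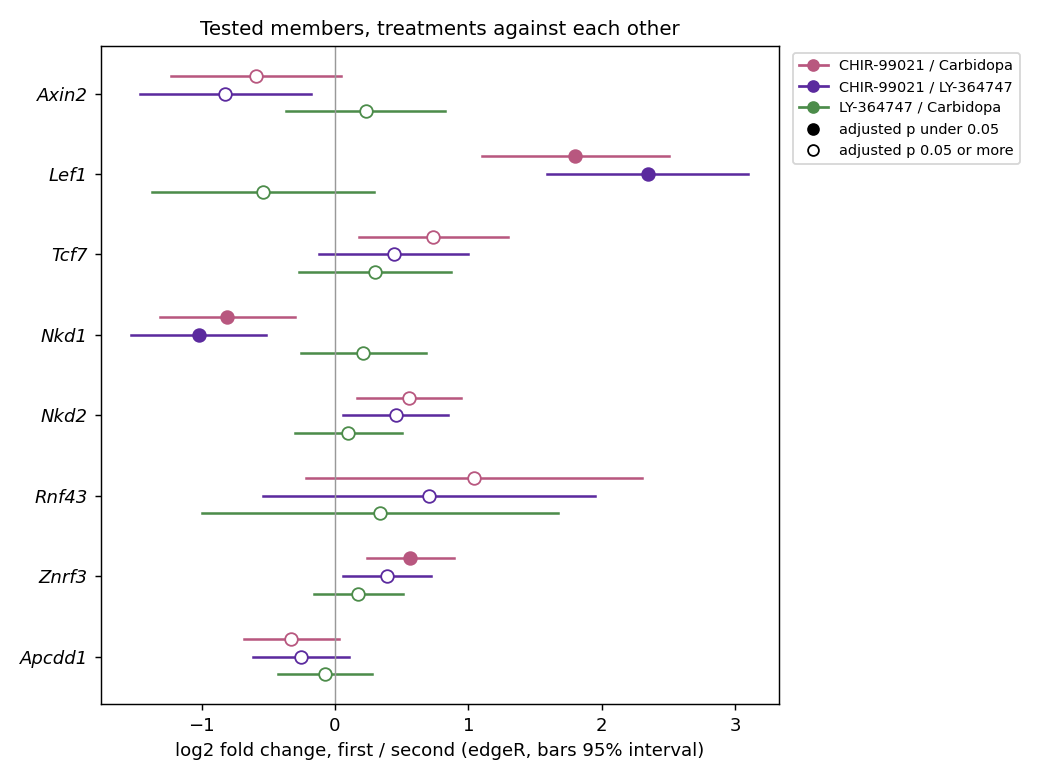
Log2 fold change between pairs of compounds (x axis, edgeR, bars the 95% interval) for the 8 tested Wnt target and feedback genes, filled where the adjusted p was under 0.05. Lef1 lies at 1.80 and 2.34 for CHIR-99021 against Carbidopa and LY-364747, Nkd1 lies below 0 in both, and no gene is filled for LY-364747 against Carbidopa.

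The genes whose pattern over the 8 libraries was most like that of Axin2 were Fam189a2, Trim71, Angptl7, Zdhhc24 and Emid1. Their log2 CPM had Pearson correlations of 0.97, 0.96, 0.95, 0.95 and 0.95 with that of Axin2, taken as the 5 highest of all tested genes and given as a description of libraries that share groups and depth. Trim71, a regulator of RNA in early embryonic cells, had 20 and 19 reads in MEFs, 37 and 38 with Carbidopa, 18 and 21 with CHIR-99021, and 29 and 40 with LY-364747. As for Axin2, none of the 5 genes was called against MEFs for any compound.

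Upstream of these targets, the 17 genes of the destruction complex and Dishevelled group were all tested. Against MEFs, 6 were higher and 1 lower with CHIR-99021, 5 higher and 2 lower with Carbidopa, and 5 higher and 0 lower with LY-364747 (edgeR, where 3 were lower at an unadjusted p under 0.05 and 0 with DESeq2), with median log2 fold changes of 0.12, -0.13 and -0.03. The called shares of 41.2%, 41.2% and 29.4% lie near those over all tested genes (38.8%, 37.7% and 31.0%). The largest rise with CHIR-99021 was that of Apc2, an Apc homologue, from 126 and 139 reads in MEFs to 518 and 407 (2.91-fold, log2 fold change 1.54, adjusted p = 8.20e-05). Apc2 was also 2.34-fold higher with Carbidopa (adjusted p = 4.20e-04) and 2.85-fold higher with LY-364747 (adjusted p = 1.01e-04). Axin1, the scaffold related to Axin2, rose with CHIR-99021 (1.00, adjusted p = 4.15e-04), with Carbidopa (0.79, adjusted p = 0.00202) and with LY-364747 (0.67, adjusted p = 0.00582). Btrc, the F-box protein that recognises phosphorylated beta-catenin, rose by a log2 fold change of 0.50 with CHIR-99021 (adjusted p = 0.00987). This call was lost without MEF replicate 2 (0.43) or CHIR-99021 replicate 1 (0.46). Btrc also rose with Carbidopa (0.53, adjusted p = 0.00712), a call lost without MEF replicate 2 (0.47). With LY-364747 it rose by 0.38 (adjusted p = 0.0404), a call lost with DESeq2 (adjusted p = 0.100) and without any 1 of the MEF, CHIR-99021 or LY-364747 libraries. Its difference between CHIR-99021 and Carbidopa was -0.04 (adjusted p = 0.872). Tnks2, a tankyrase that destabilises Axin, was the 1 gene that fell (-0.31, adjusted p = 0.0325), and its call held with 1 library left out only for the Carbidopa libraries, the others giving adjusted p = 0.0512 to 0.237, and was also lost without the filter (adjusted p = 0.0669) and with the replicate block (adjusted p = 0.0521). The LY-364747 call of Axin1 was lost without MEF replicate 2 (0.59, adjusted p = 0.0708) or LY-364747 replicate 2 (0.52, adjusted p = 0.0721). Between CHIR-99021 and Carbidopa edgeR called 0 of the 17 (2 at an unadjusted p under 0.05, 1 with DESeq2), and between CHIR-99021 and LY-364747 it called 0 (2 and 0). With 1 library left out, CHIR-99021 gave 2 to 6 of the 17 higher than MEFs and 0 to 3 lower.

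Of the 15 nuclear partners of beta-catenin and the TCF/LEF factors, 1 was higher and 6 lower with CHIR-99021, 2 and 5 with Carbidopa, and 1 and 7 with LY-364747. Called shares were 46.7%, 46.7% and 53.3%, where all tested genes gave 18.7% higher and 20.1% lower, 18.0% and 19.7%, and 13.7% and 17.2%. DESeq2 called 2 higher and 4 lower, 2 and 5, and 1 and 5. The log2 fold changes had medians of -0.24, -0.30 and -0.40 in the same order. With 1 library left out, 1 to 4 were higher and 2 to 8 lower with CHIR-99021, 1 to 2 and 5 to 8 with Carbidopa, and 1 and 4 to 8 with LY-364747. The gene that rose with CHIR-99021 was Tle3, a Groucho-family corepressor (0.97, adjusted p = 4.78e-05). The largest falls with that compound were those of Tbl1xr1, an exchange factor for corepressors (-1.04, adjusted p = 1.36e-04), Tcf7l1, a TCF factor that mostly represses (-0.75, adjusted p = 9.03e-04), and Tle4, another corepressor (-0.57, adjusted p = 0.0396). The call of Tle4 was lost with DESeq2 (adjusted p = 0.0665) and without any 1 of the MEF or CHIR-99021 libraries (adjusted p = 0.110 to 0.167). Tcf7l1 also fell with Carbidopa (-0.78, adjusted p = 7.19e-04) and LY-364747 (-0.70, adjusted p = 0.00160), where Tcf7 was higher. Tbl1xr1 fell with Carbidopa (-1.02, adjusted p = 1.68e-04) and LY-364747 (-0.72, adjusted p = 0.00166) too. Tle3 rose with Carbidopa (0.65, adjusted p = 7.91e-04) and LY-364747 (0.79, adjusted p = 2.29e-04). Tle4 fell with LY-364747 (-0.64, adjusted p = 0.0295, lost with DESeq2 at 0.0530) and was not called with Carbidopa (-0.39, adjusted p = 0.132). None of Tle3, Tbl1xr1, Tcf7l1 and Tle4 was called between CHIR-99021 and either other compound.

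Of 30 other genes known as Wnt targets in some tissue, 23 were tested. With CHIR-99021, 10 were higher and 8 lower (median log2 fold change 0.27), with Carbidopa 7 and 11 (-0.38), and with LY-364747 9 and 10 (-0.26). Called shares were 78.3%, 78.3% and 82.6%, against 38.8%, 37.7% and 31.0% of all tested genes. The list was chosen with earlier results of these data known, so these counts and shares are a description. Tnfrsf19, Dact2 and Ascl2, with 0 to 2 reads in each MEF library, passed the filter through treated libraries alone. Dkk1 passed through the MEF libraries alone. The largest rises with CHIR-99021 were in genes nearly absent from MEFs. Tnfrsf19, a receptor of the TNF family, went from 1 read over both MEF libraries to 27 over both CHIR-99021 libraries (ratio 22.6, exact counting interval 3.72 to 925), and Dact2, a Dishevelled-binding protein, from 4 to 86 reads (ratio 18.0, 6.78 to 67.5). Bambi, a decoy receptor of the TGF-beta family, was at 43 and 43 reads in MEFs and at 536 and 527 with CHIR-99021 (10.3-fold, log2 fold change 3.36, adjusted p = 7.55e-07). These 3 genes were higher with Carbidopa and LY-364747 as well, at 7.41-fold and 6.85-fold for Bambi.

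The largest falls with CHIR-99021 were those of Dkk1, Cd44 and Ccn4. Dkk1, a secreted antagonist of the Wnt co-receptor, had 11 and 13 reads in MEFs, 1 and 1 with CHIR-99021, 1 and 2 with Carbidopa, and 0 in both LY-364747 libraries. Its CHIR-99021 call (adjusted p = 0.00414) was lost without CHIR-99021 replicate 1 (adjusted p = 0.0573). Cd44, a hyaluronan receptor, was 3.78-fold lower with CHIR-99021 (log2 fold change -1.92, adjusted p = 4.18e-07). It was lower still with Carbidopa (-2.61, adjusted p = 6.54e-08) and LY-364747 (-2.73, adjusted p = 4.83e-08). The direct differences of Cd44 were 0.69 for CHIR-99021 against Carbidopa (adjusted p = 0.00204) and 0.81 against LY-364747 (adjusted p = 8.55e-04). Ccn4, a secreted matricellular protein, fell from 12391 and 14513 reads in MEFs to 4348 and 4804 with CHIR-99021, to 799 and 972 with Carbidopa, and to 841 and 935 with LY-364747. Its fall was smaller with CHIR-99021, at 3.51-fold, than with the other compounds, and the direct difference was 2.67 on the log2 scale against Carbidopa (adjusted p = 1.31e-06) and 2.45 against LY-364747 (adjusted p = 2.91e-06). The fibroblast marker sum fell in the same libraries, and its part in these falls was not tested.

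Compared directly with the other compounds, CHIR-99021 gave 8 of the 23 genes higher and 3 lower than Carbidopa, and 8 higher and 1 lower than LY-364747. Of all tested genes, 6.62% were higher and 8.08% lower against Carbidopa, and 6.45% and 7.69% against LY-364747. Myc and Id2, chosen after their values were seen, were called in opposite directions. Myc, a growth-promoting transcription factor, had 490 and 511 reads in MEFs, 1010 and 905 with CHIR-99021, 485 and 424 with Carbidopa, and 271 and 303 with LY-364747. It rose with CHIR-99021 (0.67, adjusted p = 0.00142) and fell with Carbidopa (-0.70, adjusted p = 0.00134) and LY-364747 (-1.15, adjusted p = 5.93e-05). The direct differences of Myc were 1.38 against Carbidopa (adjusted p = 8.63e-05) and 1.82 against LY-364747 (adjusted p = 1.96e-05). Id2, an inhibitor of helix-loop-helix factors, fell with CHIR-99021 (-0.49, adjusted p = 0.0179) and rose with Carbidopa (0.80, adjusted p = 0.00102) and LY-364747 (0.58, adjusted p = 0.00773). The CHIR-99021 call of Id2 was lost without MEF replicate 1, MEF replicate 2 or CHIR-99021 replicate 1 (adjusted p = 0.0750, 0.0993 and 0.169), and the LY-364747 call without MEF replicate 1, MEF replicate 2 or LY-364747 replicate 1 (adjusted p = 0.0684, 0.0555 and 0.0540). The direct differences of Id2, -1.29 against Carbidopa (adjusted p = 2.28e-04) and -1.07 against LY-364747 (adjusted p = 7.41e-04), held without any 1 library.

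**Figure D4:**
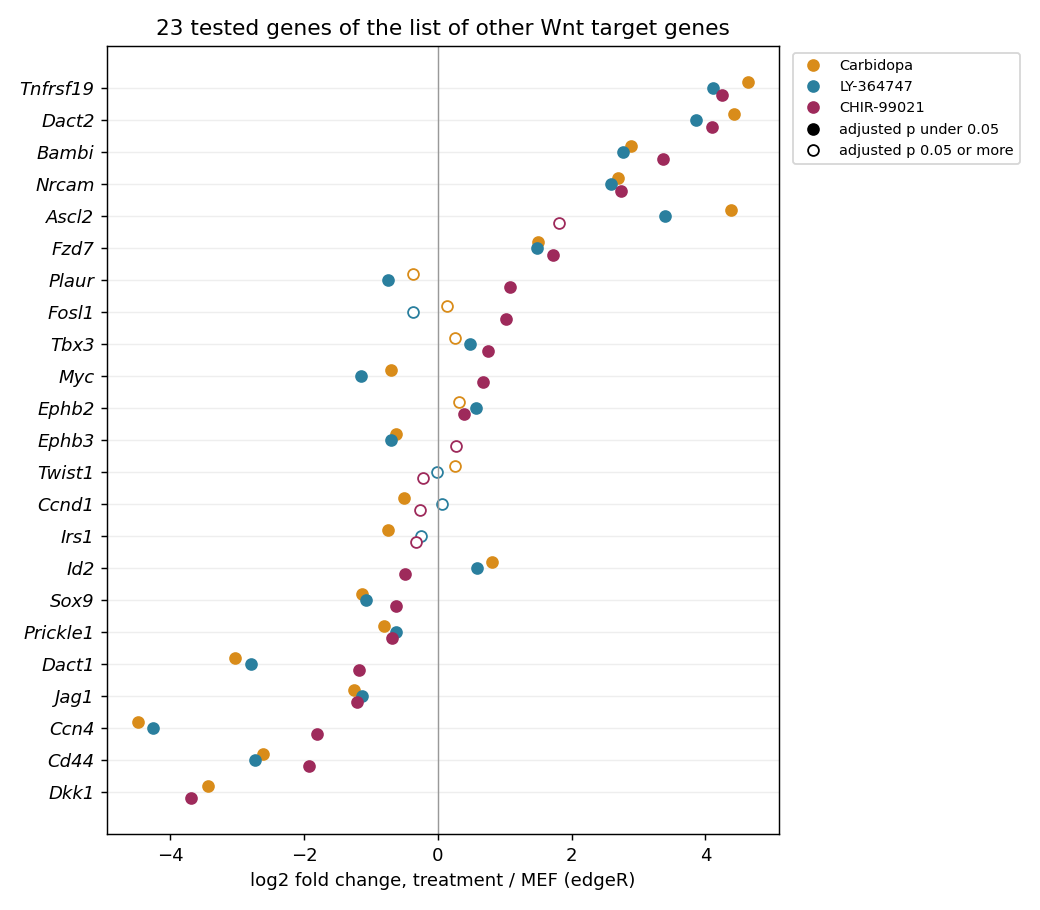
Log2 fold change against MEFs (x axis, edgeR) of the 23 tested genes among 30 other Wnt targets, ordered by the CHIR-99021 value and filled where the adjusted p was under 0.05. The LY-364747 value of Dkk1 is not drawn because both LY-364747 libraries held 0 reads. Myc lies to the right of 0 for CHIR-99021 and to the left for Carbidopa and LY-364747, and Bambi lies far to the right for all 3.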

How the data were processed

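RNA-seq libraries of MEFs and of MEFs treated with 1 of 3 compounds were analysed. The authors aligned reads to mm10 with STAR 2.4.2a, counted them per gene with featureCounts and deposited the counts without normalization. The featureCounts version, annotation release and strand setting are not given in the sources used here, and labels and methods name different library kits. Groups came from the sample labels.

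The members and gene lists were chosen with earlier results of these data known, so counts and shares called within a list are descriptions. Counts of all 8 libraries were fitted together in R 4.3.3 with edgeR 4.0.16 (filterByExpr, TMM, quasi-likelihood test, group as the only term). Adjusted p is the Benjamini-Hochberg value over all tested genes, and genes under 0.05 are called. The biological coefficient of variation was 11.0%. Alternatives were RLE size factors, the Wald test of DESeq2 1.42.0, no filter, at least 10 counts in every library, only the 2 groups compared, a replicate block, and leaving out each library. Scripts were tested on simulated data.

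All 10 genes are named, as are, from each pathway list, genes called with CHIR-99021 against MEFs with the 3 largest rises and 3 largest falls, and the 5 genes most correlated with Axin2 (log2 CPM, prior count 2). Pathway lists were destruction complex and Dishevelled genes, nuclear partners and other Wnt targets, and marker lists were fibroblast, macrophage, T cell, endothelial, epithelial, and neural crest and melanocyte genes. Positions and exon lengths are from GENCODE M21 on mm10, which held 50354 of the 50578 gene identifiers (99.6%) and may not be the release the authors used. Depth was 15039566 to 20504338 counts. Ratios of low reads have exact binomial 95% intervals, which cover counting error only.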

Additional observations from a re-analysis of the deposited data

How the results depend on the processing

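The calls of Lef1, Tcf7, Nkd1 and Nkd2 for CHIR-99021 against MEFs, of Tcf7 and Nkd2 for Carbidopa and LY-364747 against MEFs, and of Lef1 for CHIR-99021 against the other compounds held in every alternative in which the gene was fitted. Over the 8 tested genes and 6 comparisons, 264 of 274 values under the other fits and 346 of 384 with 1 library left out kept their direction and their side of the threshold, and where a value did not, the cause was not tested except as given here. Notum and Sp5 were fitted only without the filter and have no value to compare. With at least 10 counts in every library, which leaves out Tcf7 and Rnf43, 1 gene was higher with CHIR-99021, 1 with Carbidopa and 1 with LY-364747 than in MEFs, and 2 were lower with Carbidopa. RLE size factors also gave 2 lower with Carbidopa. For CHIR-99021 against Carbidopa, DESeq2 gave 1 higher and 0 lower, and the fit of the 2 groups alone gave 1 and 0 among 1027 genes called. That fit called 3673 genes for CHIR-99021 against LY-364747, with 2 of the 8 higher, and 0 genes for LY-364747 against Carbidopa, where DESeq2 called 16 and the fit without the filter 329. The replicate block left 0 genes lower for CHIR-99021 against Carbidopa (Nkd1 -0.81, adjusted p = 0.0524) and ended no other call of the 8 genes. Deviations of same-numbered libraries had correlations of -0.16 to 0.13, so no shared pattern was seen. With a single deviation in each group, this cannot settle whether same-numbered libraries came from a common culture or batch.

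With 1 library left out, its group's lone library was assumed to vary like the others. Genes called then ranged from 3433 to 7800 (CHIR-99021), 3142 to 7996 (Carbidopa) and 2841 to 6519 (LY-364747) against MEFs, 715 to 4632 for CHIR-99021 against Carbidopa, 663 to 4228 for CHIR-99021 against LY-364747, and 2 to 3816 for LY-364747 against Carbidopa, with 3816 only without Carbidopa replicate 2. Of the 8 genes, 1 to 2 were higher and 1 to 2 lower with Carbidopa and 1 to 2 higher with LY-364747 than in MEFs. For CHIR-99021, 1 to 3 were higher and 0 to 2 lower than with Carbidopa, and 1 to 2 higher and 0 to 1 lower than with LY-364747. The sign of 7 values that were not called turned. For CHIR-99021 against MEFs, Axin2 ranged from -0.48 to 0.11, the latter without MEF replicate 1. For Carbidopa against MEFs, Lef1 ranged from -0.64 to 0.24, the latter without Carbidopa replicate 2. For LY-364747 against Carbidopa, Rnf43 ranged from -0.39 (without LY-364747 replicate 2) to 0.97, and was -0.099 without Carbidopa replicate 1. Apcdd1 ranged there from -0.29 to 0.18 (without Carbidopa replicate 2), and was 0.050 without LY-364747 replicate 1. Axin2 ranged from -0.046 (without LY-364747 replicate 2) to 0.46. Depth limits what can be said of Sp5 and Notum, with 7 reads or fewer in each library, and of the MEF level of Rnf43 and Tcf7, with 8 reads or fewer.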
